A study of Mus musculus with 45 samples.

Results

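The response of pancreatic islets to a high-fat diet was compared between NZO/HlLtJ mice and the mean of 2 other inbred strains, C57BL/6J and CAST/EiJ, to find the genes whose diet response was specific to NZO/HlLtJ. All 45 of the 45 samples entered the comparison, 14 of NZO/HlLtJ, 16 of C57BL/6J and 15 of CAST/EiJ. The mice carried the wild-type genotype per the labels and received no other treatment. Both sexes were fed, starting at 6 weeks of age, either a diet of 10% fat, called the control diet here, or a diet of 44% fat that was rich in sugar, called the high-fat diet. The labels name fiber for both diets. Islets were collected at 15 weeks. C57BL/6J had 4 samples in each group of sex and diet. CAST/EiJ had 4 in each except 3 control males. NZO/HlLtJ had 4 control females, 4 high-fat females, 3 control males and 3 high-fat males. Polyadenylated RNA was sequenced as paired reads of 150 bp. The labels do not tie a sample to an animal, so the p-values below rest on sample-to-sample spread alone, which may be partly technical.

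Islets are clusters of endocrine cells in the pancreas, most of them beta cells that take up glucose, burn it, close potassium channels in response and release insulin as calcium enters. A beta cell under lasting metabolic load may enlarge, divide, lose the transcription factors and transporters of its mature state, or switch on genes that mature beta cells keep silent, which are called disallowed genes. NZO/HlLtJ is a polygenic model of obesity in which males often become diabetic, C57BL/6J gains weight on a high-fat diet but usually keeps its glucose under control, and CAST/EiJ is a lean strain derived from wild mice. The series asked, by its title, how genotype and diet jointly set susceptibility to type 2 diabetes.

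The deposited tables hold expected counts of 22904 genes, with totals from 57203768 to 109950216 per library. Of these genes, 20306 had enough counts to be tested. Levels are given below as CPM, counts brought to a common library total that was scaled between libraries. A diet effect is the log2 fold of the 44% over the 10% fat diet, averaged over females and males. The interaction is the diet effect in NZO/HlLtJ minus the mean of the diet effects in C57BL/6J and CAST/EiJ, on the log2 scale, so that 1 is a 2-fold larger rise or smaller fall in NZO/HlLtJ. Errors of these values are standard errors (SE) of the fit across all 45 libraries, and calls use an adjusted p under 0.05 in the edgeR quasi-likelihood test. Gene positions are those of the deposited annotation, in GRCm38. A gene was called specific to NZO/HlLtJ when it passed in the interaction, against C57BL/6J alone, against CAST/EiJ alone and in the NZO/HlLtJ diet effect, all in 1 direction, and did not pass in that direction in the mean of the other strains.

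Some libraries stood apart from their groups. NZO/HlLtJ control male 3 lay near the high-fat males for many genes: in a fit without it, 2945 of the 4824 genes then called specific (61.0%) were nearer the high-fat than the control mean of the other NZO/HlLtJ males in this library. For the other 13 NZO/HlLtJ libraries the share of genes nearer the mean of the other diet, counted in the same way, was from 2.08% to 47.2%. In CAST/EiJ control female 4 the transcripts of acinar cells, the exocrine cells around islets, held 41.05% of counts. In the other libraries of the non-NZO strains they held from 0.06524% to 23.84%. NZO/HlLtJ high-fat male 3 had the X-inactivation transcript Xist at 15.3 CPM, against at most 4.85 CPM in the other males and at least 531 CPM in females, with the Y-linked gene Kdm5d at 19.4 CPM. Acinar transcripts held from 1.931% to 8.834% of counts in NZO/HlLtJ control females and from 3.741% to 9.660% in high-fat females. In males these shares were from 4.615% to 6.200% and from 9.629% to 20.800%, so the acinar share and the diet moved together there. The numbers in the sample names fall into 3 runs, called number ranges here and included as a term in the fit. Within NZO/HlLtJ, the second range has no control males and no high-fat females, while the third lacks control females and high-fat males.

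The diet changed islet transcripts in NZO/HlLtJ far more widely than in the other strains. The interaction was called for 6207 of 20306 genes (30.6%), 2974 higher (14.6%) and 3233 lower (15.9%) in NZO/HlLtJ, and 1607 of them differed at least 2-fold, 1333 higher and 274 lower. The 14.6% and 15.9% are the shares to set beside the interaction calls of each gene list below. The lists and their members were chosen with earlier results of these data known, so their counts and medians describe them and test nothing. The diet effect within NZO/HlLtJ was called for 7464 genes (36.8%), against 9 in C57BL/6J (0.0443%), 9 in CAST/EiJ (0.0443%) and 5 in their mean (0.0246%), where 1659 had an unadjusted p under 0.05 and DESeq2 called 54. NZO/HlLtJ differed from C57BL/6J in its diet response for 4128 genes (20.3%) and from CAST/EiJ for 5363 (26.4%), while CAST/EiJ and C57BL/6J differed from each other for 3 (0.0148%, 645 at an unadjusted p under 0.05 and 20 by DESeq2). These comparisons share the NZO/HlLtJ samples. Under the rule for a specific response 3435 genes passed (16.9%), 1593 higher (7.84%) and 1842 lower (9.07%). Of them 812 rose at least 2-fold more and 162 fell at least 2-fold more than in the other strains. The median size of the diet effect among the 3435 was 0.59 in NZO/HlLtJ and 0.07 in the mean of the others, and for 3120 (90.8%) the 95% confidence interval of the others' effect lay within 1.5-fold. These genes were chosen for that contrast, so the medians describe them and test nothing. Another 1760 genes called for diet in NZO/HlLtJ were not called in the interaction, and 503 of the interaction were not called for diet in NZO/HlLtJ.

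**Figure D1:**
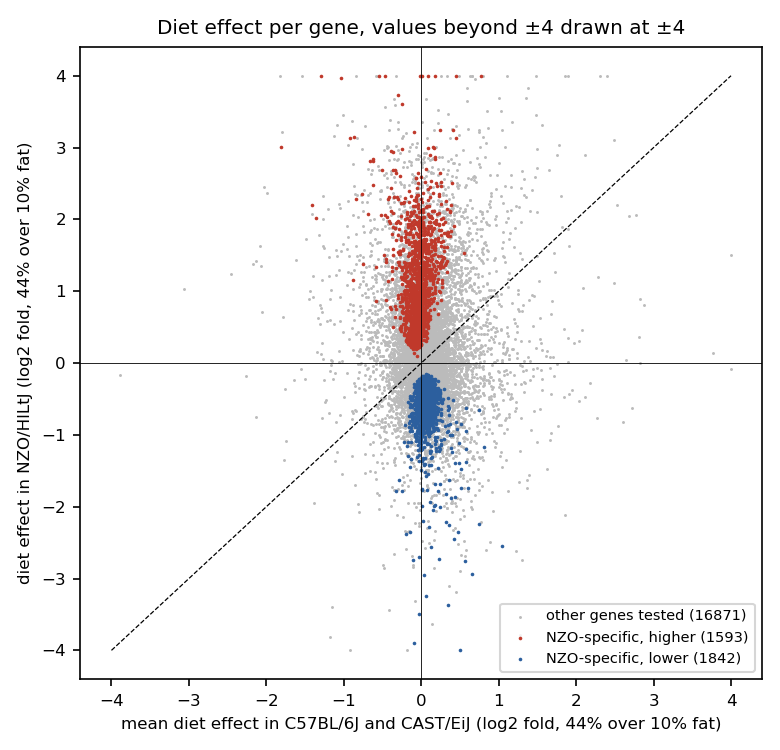
Diet effect of each gene tested, as log2 fold of the 44% over the 10% fat diet, in NZO/HlLtJ (vertical axis) against the mean of C57BL/6J and CAST/EiJ (horizontal axis). Red and blue points are the 1593 higher and 1842 lower genes specific to NZO/HlLtJ, and grey points the other genes. The coloured points lie along the vertical axis, away from the dashed line of equal effect.

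Genes of mature beta cells fell in NZO/HlLtJ relative to the other strains. Of the 28 genes of a beta cell identity list, 18 were called lower in the interaction and 0 higher, with a median of -0.67. Over all genes tested 15.9% were lower and 14.6% higher, and the median was -0.03. The list's median diet effect was -0.63 in NZO/HlLtJ, -0.01 in C57BL/6J and 0.03 in CAST/EiJ. In bulk samples fewer beta cells and less RNA per beta cell cannot be told apart. Slc2a2 encodes the transporter by which mouse beta cells take up glucose, on chromosome 3 at 28697903 to 28731359. Slc2a2 stood at 639, 503, 599 and 505 CPM in NZO/HlLtJ control females and at 531, 309, 269 and 500 CPM in high-fat females. NZO/HlLtJ males had 582, 523 and 269 CPM on the control diet and 139, 195 and 97.3 CPM on the high-fat diet. The other strains ranged from 593 to 1500 CPM on the control diet (median 913, 15 samples) and from 537 to 1440 CPM on the high-fat diet (median 984, 16 samples). The male diet groups did not overlap, the female groups did, and control male 3 was the lowest of the control males. The interaction of Slc2a2 was -1.09 ± 0.19 (adjusted p = 9.15e-05), with a diet effect of -1.08 ± 0.16 in NZO/HlLtJ and 0.00 ± 0.11 in the others.

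Trpm5, a cation channel that calcium opens and that depolarises beta cells, had the smallest p of the identity list (chromosome 7, 143069153 to 143094642). In NZO/HlLtJ females Trpm5 was at 98.2, 104, 83.8 and 83.7 CPM on the control diet and at 71.1, 45, 47 and 64 CPM on the high-fat diet. Males had 60.6, 51.8 and 27.5 CPM against 13.3, 16.6 and 7.61 CPM. The others ranged from 94 to 333 CPM on the control diet and from 110 to 336 CPM on the high-fat diet, with medians of 183 and 182 CPM. The diet groups of NZO/HlLtJ did not overlap in either sex, and every high-fat NZO/HlLtJ library lay below every library of the other strains. Its interaction was -1.25 ± 0.18 (adjusted p = 6.57e-06). Prlr, the prolactin receptor through which pregnancy expands beta cells, had -0.89 ± 0.20, and Sytl4, a granule-docking protein, -0.89 ± 0.13. G6pc2, the islet glucose-6-phosphatase subunit that opposes glucokinase, had -0.76 ± 0.20.

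Insulin transcripts did not pass. Ins2, the main insulin gene of the mouse (chromosome 7, 142678656 to 142699510), had 64884, 58155, 61674 and 76626 CPM in NZO/HlLtJ control females and 69410, 90395, 81187 and 98364 CPM in high-fat females. Its male values were 74277, 80366 and 95917 CPM on the control diet and 51821, 58272 and 28391 CPM on the high-fat diet. Levels in the other strains ran from 46160 to 88233 and from 50662 to 80704 CPM. The males on the high-fat diet all lay below the control males, and the females overlapped. Averaged over the sexes Ins2 had an interaction of -0.22 ± 0.21 (adjusted p = 0.457), with 0.49 ± 0.29 in females (adjusted p = 0.25) and -0.92 ± 0.32 in males (adjusted p = 0.032). The difference between the sexes had adjusted p = 0.0517. Ins1, the other insulin gene, had an interaction of -0.15 ± 0.21, and its sex difference passed (0.75 in females and -1.04 in males, adjusted p = 0.0173). For both genes the test of the sex difference depends on the range term. Mafa, which drives insulin transcription in adult beta cells, had -0.44 ± 0.22 (adjusted p = 0.136). Its diet effects were -0.75 in NZO/HlLtJ, -0.31 in C57BL/6J and -0.31 in CAST/EiJ.

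Hormones of the other endocrine cells gave no call. Gcg, the glucagon gene of alpha cells, had 0.11 ± 0.23, and Sst, the somatostatin gene of delta cells, -0.25 ± 0.16. Of all genes 14.6% were called higher and 15.9% lower, shares that the markers of the other islet endocrine cells did not exceed. Of 14 such markers 2 were called higher and 1 lower. These were Ttr, the transthyretin gene abundant in alpha cells (1.06 ± 0.28), Hhex, a delta cell transcription factor (0.61 ± 0.21), and Slc7a2, a cationic amino acid transporter (-0.73 ± 0.13). The call of Hhex was lost in 2 of the 45 fits that each left out 1 library (adjusted p at most 0.0871, without NZO/HlLtJ high-fat male 3).

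Among channels and release proteins the calls in NZO/HlLtJ were mostly lower, against 15.9% of all genes called lower and 14.6% higher. Of 18 ion channel genes of stimulus and secretion, 7 were called lower and 0 higher (median -0.32), all 7 of them specific to NZO/HlLtJ. After Trpm5, the smallest p belonged to Cacnb2, a calcium channel subunit (-0.56 ± 0.09, adjusted p = 1.46e-05). Of 20 genes of the hormone granule and exocytosis, 8 were called lower and 1 higher (median -0.21). Rph3al, a Rab effector of granule release, had -0.60 ± 0.09. The single gene called higher was Chgb, the granule protein chromogranin B, at 0.86 ± 0.23. Trpm5 and Sytl4 are members of the beta cell identity list too.

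The gene with the smallest p of all lower genes was Cib3, a calcium-binding protein of low level in islets (chromosome 8, 72204335 to 72212837). Cib3 was at 2.73, 2.77, 1.96 and 3.06 CPM in NZO/HlLtJ control females and at 1.61, 1.06, 0.375 and 0.871 CPM in high-fat females. Control males had 1.98, 2.45 and 0.482 CPM and high-fat males 0.0657, 0.0794 and 0 CPM. The other strains held from 2.62 to 5.3 CPM (median 4.1) and from 3.37 to 6.22 CPM (median 4.24). The diet groups of NZO/HlLtJ were separate in each sex, and control male 3 was the only control library under 1.96 CPM. The interaction was -3.31 ± 0.33 (adjusted p = 1.25e-07), a diet fold of 0.105 in NZO/HlLtJ and of 1.04 in the others. In this fit it was larger in males (-5.18) than in females (-1.44, adjusted p of the difference = 0.0027). The number ranges of NZO/HlLtJ split by sex and diet together, so the test of that difference depends on the range term. High-fat males were near 0 CPM, so the size in males rests on very few counts.

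Eno2, the enolase of neurons and endocrine cells (chromosome 6, 124760053 to 124769673), was among the 4 lower genes of smallest p. Eno2 was at 73.5, 74.3, 82 and 72.3 CPM in NZO/HlLtJ control females and at 49.6, 48.2, 47.9 and 48.3 CPM in high-fat females. Its levels in males were 64.2, 60.2 and 50 CPM against 39, 33.8 and 27.1 CPM. C57BL/6J ranged from 36 to 48.1 CPM on the control diet and from 40.2 to 48.6 CPM on the high-fat diet, and CAST/EiJ from 110 to 148 and from 129 to 155 CPM. Diet groups were again separate in each NZO/HlLtJ sex, while those of each other strain overlapped. The interaction was -0.74 ± 0.08 (adjusted p = 3.06e-07), with -0.67 in females and -0.80 in males.

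Jph3, a junctophilin that ties the endoplasmic reticulum to the cell membrane (chromosome 8, 121729623 to 121794276), was at 21, 21, 28.2 and 24.5 CPM in NZO/HlLtJ control females. High-fat females had 14.1, 7.11, 8.32 and 8.16 CPM. Males had 16.9, 12.4 and 6.65 CPM on the control and 4.93, 5.24 and 3.52 CPM on the high-fat diet. The NZO/HlLtJ diet groups did not overlap in either sex. All of its 7 high-fat libraries and its 3 control males lay under the lowest library of the other strains, which ranged from 20.5 to 40.3 CPM over both diets. Its interaction was -1.37 ± 0.16 (adjusted p = 8.32e-07). St8sia1, a sialyltransferase of ganglioside synthesis, completed the 4 lower genes of smallest p at -1.63 ± 0.17.

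The lower genes of largest size were of low level and included several membrane channels. After Cib3 these were Mcoln3, an endolysosomal cation channel (-2.98 ± 0.45), Cyp4f39, a fatty acid hydroxylase (-2.69 ± 0.39), T2 (-2.63 ± 0.40), Kcnf1, a potassium channel subunit (-2.24 ± 0.40), and Kcnj12, an inward rectifier potassium channel (-2.22 ± 0.32). Otoa had -2.21 ± 0.34, the nicotinic receptor subunit gene Chrna4 -2.19 ± 0.45, Mreg, a regulator of melanosome transport, -1.99 ± 0.23, and Fam196a -1.86 ± 0.49. Pcp4, which encodes a calmodulin-binding peptide, had -1.77 ± 0.29, and the cadherin gene Cdh7 -1.77 ± 0.35. Mcoln3 was at 3.96 to 7.32 CPM in NZO/HlLtJ control females and at 0.194 to 2.22 CPM in high-fat females. Its control males had 2.91, 1.38 and 0.0634 CPM, so control male 3 lay below every high-fat male (0.11 to 0.287 CPM). Without high-fat female 1 the interaction of Mcoln3 was -3.60.

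**Figure D2:**
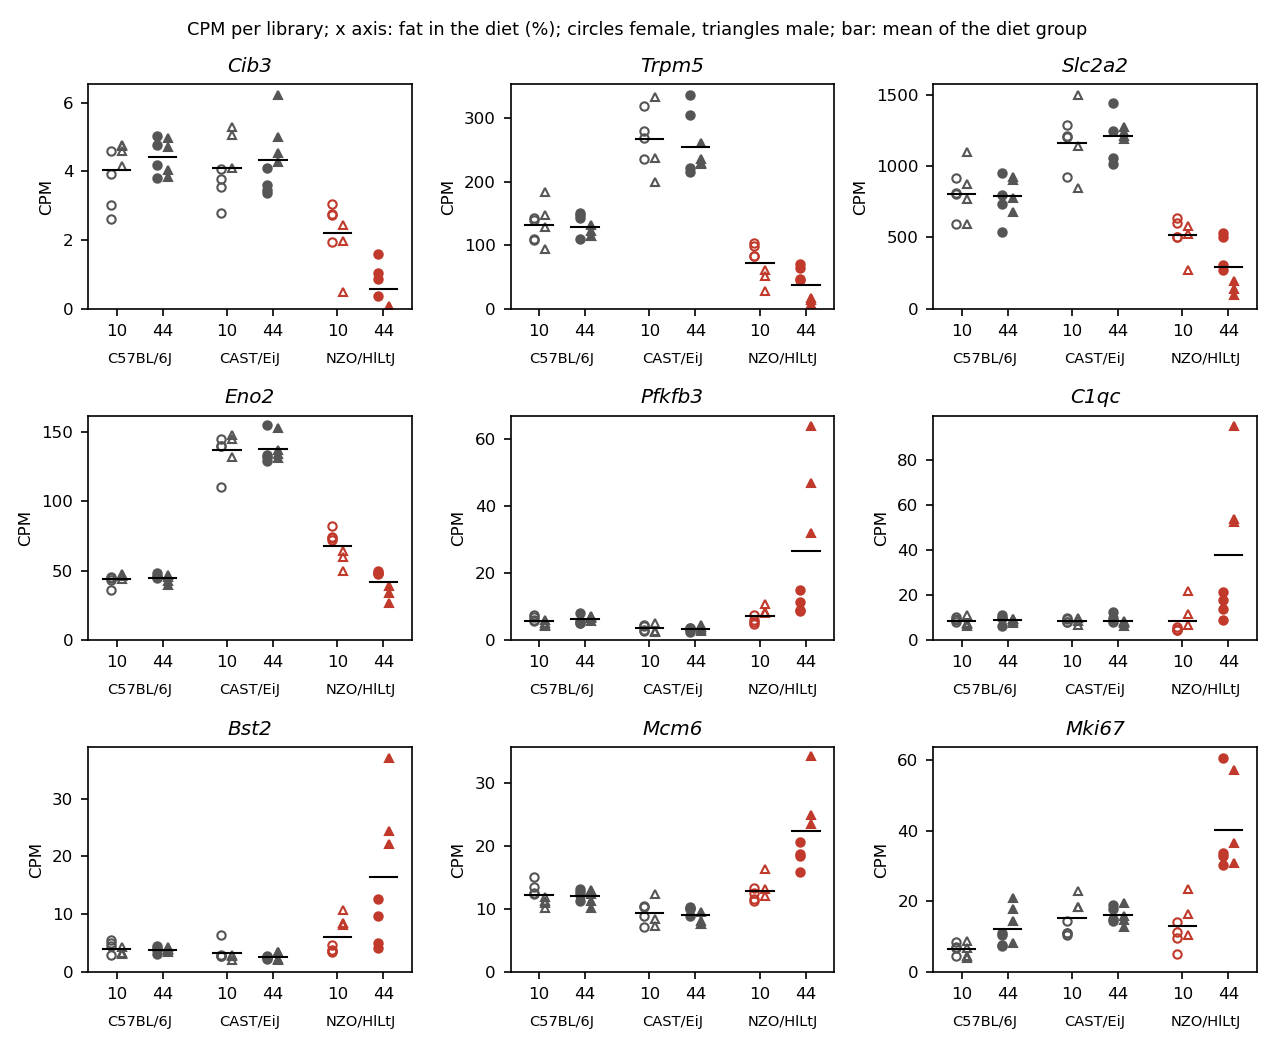
CPM of 9 genes in each of the 45 libraries (vertical axes), by strain and by percent of fat in the diet (horizontal axes), with circles for females, triangles for males, open symbols for the 10% and filled symbols for the 44% fat diet, and a bar at the mean of each diet group. The red NZO/HlLtJ symbols move down between the diets for Cib3, Trpm5, Slc2a2 and Eno2 and up for Pfkfb3, C1qc, Bst2, Mcm6 and Mki67, while the bars of the other strains stay nearly level except for Mki67 in C57BL/6J.

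Genes that mature beta cells keep silent rose in NZO/HlLtJ relative to the other strains. Of 23 tested genes of a disallowed list, 20 were called higher and 0 lower, with a median of 1.11, and 19 of them were specific to NZO/HlLtJ. The list's median diet effect was 1.05 in NZO/HlLtJ, -0.08 in C57BL/6J and -0.01 in CAST/EiJ. These genes are active in other cells of the preparation, whose markers rose in the same libraries (below), and the part of those cells in the list's change was not tested. Parp3, a poly(ADP-ribose) polymerase family member that acts in DNA repair, had the smallest p (1.44 ± 0.18, adjusted p = 1.56e-06). Oat, ornithine aminotransferase, had 0.83 ± 0.14, Ldha, the lactate dehydrogenase subunit, 1.05 ± 0.24, and Hk1, the hexokinase of low glucose threshold, 0.55 ± 0.16. The value of Hk1 was -0.10 in females and 1.19 in males.

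Markers of immature or dedifferentiated beta cells were mixed. Of 14, 5 were called higher and 1 lower, against 14.6% and 15.9% of all genes, with a median of 0.37. The higher were the gastrin gene Gast (3.03 ± 0.57), Cck, the gene of the gut hormone cholecystokinin (3.24 ± 0.98), the progenitor transcription factor Sox9 (1.53 ± 0.46), which duct cells also express, the intermediate filament gene Vim (1.21 ± 0.25), which stromal cells express, and the tetraspanin gene Cd81 (0.35 ± 0.10). The lower was Fabp3, a fatty acid carrier (-0.76 ± 0.18). Aldh1a3, an aldehyde dehydrogenase that marks failing beta cells, had 0.59 ± 0.28 (adjusted p = 0.106). Cck lies on chromosome 9 at 121489825 to 121495689. It was at 0.706, 0.699, 0.502 and 0.968 CPM in NZO/HlLtJ control females and at 2.06, 19.5, 16.2 and 10.3 CPM in high-fat females. Males had 0.459, 2.28 and 21.6 CPM on the control and 94.6, 78.7 and 93.4 CPM on the high-fat diet. The other strains held at most 0.501 CPM in any library. Diet groups did not overlap in either NZO/HlLtJ sex, control male 3 was the highest control library, and the call in the interaction (adjusted p = 0.0109) was not specific, since the comparisons with single strains did not all pass. It was lost without C57BL/6J control male 2 (adjusted p = 0.0898), and its value was 4.48 without NZO/HlLtJ control male 3. The call of Cd81 was lost without NZO/HlLtJ high-fat male 3 (adjusted p = 0.0581), and its interaction was -0.22 in females and 0.92 in males.

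Slc5a10, a sodium-coupled sugar transporter (chromosome 11, 61672781 to 61720826) was near 0 in the other strains. In control females of NZO/HlLtJ it was at 0.0991, 0.103, 0.138 and 0.146 CPM and in high-fat females at 0.273, 8.28, 8.48 and 4.12 CPM. Control males had 0.372, 1.08 and 81.4 CPM and high-fat males 108, 79.6 and 103 CPM. The other strains held from 0.0153 to 0.684 CPM over both diets. Control male 3 alone lay inside the range of the high-fat males. The interaction of Slc5a10 was 4.04 ± 0.84 (adjusted p = 0.000498), with diet effects of 3.74 ± 0.68 in NZO/HlLtJ and -0.30 ± 0.52 in the others. Control male 3 decides the size: without this library the interaction of Slc5a10 was 6.57 (adjusted p = 1.02e-09), and the lowest value with 1 library left out was 3.65, without control male 1.

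Glucose-responsive genes rose in part. Of 10 genes that glucose induces in beta cells, 4 were called higher and 2 lower (median 0.45), against 14.6% and 15.9% of all genes. The higher included the arrestin-like genes Txnip (1.05 ± 0.23) and Arrdc4 (1.10 ± 0.21) and the transcription factor Klf10 (0.64 ± 0.24). The lower were G6pc2 and Mlxipl, the gene of the glucose-sensing factor ChREBP (-0.90 ± 0.21). Txnip (chromosome 3, 96557957 to 96561883) was at 235, 229, 288 and 139 CPM in NZO/HlLtJ control females and at 225, 671, 506 and 948 CPM in high-fat females. In males it was at 466, 429 and 874 CPM against 1191, 1464 and 1189 CPM. The other strains ranged from 176 to 439 and from 177 to 559 CPM. Male groups were separate and female groups overlapped through high-fat female 1. The call of Klf10 was lost in 11 of the 45 leave-one-out fits (adjusted p at most 0.155, without NZO/HlLtJ control male 1).

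Pfkfb3, which encodes the enzyme that makes the main activator of phosphofructokinase and so speeds glycolysis, had the smallest p of all higher genes (chromosome 2, 11471433 to 11554077). Pfkfb3 was at 5.4, 5.98, 7.62 and 4.93 CPM in NZO/HlLtJ control females and at 8.62, 9.14, 14.9 and 11.3 CPM in high-fat females. Control males had 8.4, 8.16 and 10.9 CPM and high-fat males 32.1, 46.7 and 63.7 CPM. In C57BL/6J and CAST/EiJ the range was from 2.61 to 7.71 and from 2.59 to 8.09 CPM. Groups did not overlap in either NZO/HlLtJ sex, and every high-fat NZO/HlLtJ library lay above every library of the others. Its interaction was 1.56 ± 0.18 (adjusted p = 8.32e-07), with 0.91 in females and 2.21 in males (adjusted p of the difference = 0.0409). The test of that difference depends on the range term.

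Macrophage transcripts rose in NZO/HlLtJ relative to the other strains. Macrophages live in islets in small numbers, and more are found in inflamed tissue. Of 21 measured gene entries for 20 macrophage and dendritic cell markers, 19 were called higher in the interaction and 0 lower, with a median of 1.91. The list's median diet effect was 1.87 in NZO/HlLtJ, 0.02 in C57BL/6J and -0.08 in CAST/EiJ. Its summed level was from 0.00874% to 0.00976% of scaled counts in NZO/HlLtJ control females, from 0.0212% to 0.0319% in high-fat females, from 0.0122% to 0.0377% in control males and from 0.0725% to 0.128% in high-fat males. Control libraries of the other strains had from 0.0105% to 0.0389% and their high-fat libraries from 0.00972% to 0.0166%. The highest of these, CAST/EiJ control male 3, had Lyz2 at 210 CPM, against 11.5 and 8.92 CPM in the other CAST/EiJ control males. C1qc, a chain of the complement protein C1q that tissue macrophages make, lies on chromosome 4 at 136889804 to 136893065. It was at 5.23, 4.5, 5.82 and 4.54 CPM in NZO/HlLtJ control females and at 21.6, 8.9, 14 and 18 CPM in high-fat females. Males had 6.96, 11.8 and 22 CPM on the control and 52.3, 53.7 and 94.9 CPM on the high-fat diet. The other strains ranged from 6.6 to 11.3 and from 6.3 to 12.5 CPM. The NZO/HlLtJ groups did not overlap in either sex, and control male 3 was the highest control. The interaction of C1qc was 1.95 ± 0.23 (adjusted p = 8.32e-07), and that of its partner chain C1qb 1.89 ± 0.23. Scarf2, a scavenger receptor gene that is not in the macrophage list and was named for its small p, had 1.44 ± 0.17. Larger were Lyz2, the lysozyme gene of myeloid cells (2.82 ± 0.49), Mrc1, the macrophage mannose receptor (2.54 ± 0.54), and Itgam, an integrin subunit (2.57 ± 0.41), which shares sequence or exons with another gene entry and is uncertain. Without CAST/EiJ control male 3 the interaction of Lyz2 was 2.07 (adjusted p = 1.6e-05).

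Antigen presentation genes moved together. All 16 were called higher in the interaction, 15 of them specific to NZO/HlLtJ, with a median of 1.33. H2-DMb1, which loads peptides on class II molecules, had 2.21 ± 0.28, and H2-Ab1, a class II chain of antigen-presenting cells, 1.90 ± 0.27. The list's median diet effect was 0.09 in C57BL/6J and -0.08 in CAST/EiJ. Lymphocyte markers had a larger median (2.17) and fewer calls, 7 higher of 18 and 0 lower (of all genes 14.6% and 15.9%). Cd79a, a B cell receptor chain, had 2.72 ± 0.56 and Cd52, a surface protein of lymphocytes, 2.00 ± 0.43. Cd79a was from 2.8 to 13.9 CPM in NZO/HlLtJ high-fat males, at most 0.646 CPM in control males and at most 1.61 CPM in females. Levels in the other strains ran from 1.42 to 12.5 CPM and from 1.61 to 8.34 CPM, so NZO/HlLtJ began below them and its high-fat males overlapped them. Without NZO/HlLtJ high-fat female 1 the interaction of Cd79a was 2.08 (adjusted p = 0.0041). The median diet effect of the lymphocyte list was 2.24 in NZO/HlLtJ, 1.14 in C57BL/6J and -0.53 in CAST/EiJ. Of 21 genes of NF-kappa B signalling and the acute phase, 12 were called higher and 0 lower (median 1.01). Cxcl16, a chemokine, had 1.41 ± 0.18 and Tnfrsf1b, a receptor of tumour necrosis factor, 1.34 ± 0.26.

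Interferon response genes, which cells switch on through the factors STAT and IRF when they sense virus or interferon, rose as well. Of 26, 24 were called higher in the interaction and 0 lower (median 1.15), 17 of them specific to NZO/HlLtJ. The motif searched in their promoters was the core of the element that interferon-activated factors bind, GAAA, then 2 bases of any kind (NN), then GAAA, on both strands and with overlapping matches counted. In RefSeq promoter windows of GRCm38.p6, from 250 bases before to 50 bases after the annotated start, 12 of the 19 list genes with a window held it (63.2%), against 1079 of all 27025 genes (3.99%) and 1 of 11 antigen presentation genes (9.09%). A match is a description of the letters and does not show that a factor binds there. The 250 bases before the start are shown for the first 2 specific genes by p that held the motif, Bst2 and Isg15, both on the minus strand at chr8:71537473-71537722 and chr4:156200819-156201068, with the motif in capitals.
Bst2: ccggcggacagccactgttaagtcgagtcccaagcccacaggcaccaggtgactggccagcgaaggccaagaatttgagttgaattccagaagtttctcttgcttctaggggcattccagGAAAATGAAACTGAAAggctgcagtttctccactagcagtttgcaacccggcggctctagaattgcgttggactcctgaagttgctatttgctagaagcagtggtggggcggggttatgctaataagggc
Isg15: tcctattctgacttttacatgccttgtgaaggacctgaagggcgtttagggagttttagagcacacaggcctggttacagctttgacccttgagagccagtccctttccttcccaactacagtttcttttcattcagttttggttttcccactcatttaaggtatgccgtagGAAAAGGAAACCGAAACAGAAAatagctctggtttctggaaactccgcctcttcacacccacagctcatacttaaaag
Bst2 (chromosome 8, 71534264 to 71537437) encodes tetherin, which holds budding virus at the cell surface, and its window has 2 overlapping matches, while that of Isg15, a ubiquitin-like modifier, has 3. Bst2 was at 4.72, 3.79, 3.43 and 3.59 CPM in NZO/HlLtJ control females and at 12.6, 4.13, 4.99 and 9.76 CPM in high-fat females. Males had 8.39, 8.17 and 10.7 CPM on the control and 24.4, 22.1 and 37.1 CPM on the high-fat diet. The other strains ranged from 2.15 to 6.38 and from 2.12 to 4.57 CPM. Male groups were separate, high-fat female 2 lay within the range of the control females, and the highest library of the other strains was CAST/EiJ control female 4, the library of highest acinar share. The interaction of Bst2 was 1.46 ± 0.24 (adjusted p = 4.67e-05), that of Isg15 1.70 ± 0.30, and that of Ifi27l2a 2.51 ± 0.44. Slfn2, a schlafen gene of immune cells, had 2.46 ± 0.55. NZO/HlLtJ also stood above the other strains on the control diet for 23 of these 26 genes, and below for 1 (of all genes 50.5% differed there, 26.9% higher and 23.6% lower), a comparison that shares the control samples with the interaction.

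Genes of connective tissue rose with those of immune cells. All 19 markers of stellate cells and fibroblasts, the collagen-making cells of the pancreas, were called higher in the interaction, with a median of 1.23, and 16 were specific. Their summed level was from 0.099% to 0.130% of scaled counts in NZO/HlLtJ control females, from 0.144% to 0.252% in high-fat females, from 0.111% to 0.271% in control males and from 0.326% to 0.573% in high-fat males. The lowest and highest libraries of the other strains were at 0.0421% and 0.106%. Col6a3, a collagen chain, had 1.29 ± 0.22 and Fbn1, the microfibril protein fibrillin, 1.22 ± 0.21. Of 20 genes of matrix remodelling 11 were called higher and 0 lower (median 1.00), with Tgfbi, a matrix protein that TGF-beta induces, at 2.00 ± 0.34 and its receptor gene Tgfbr2 at 1.03 ± 0.18. Duct markers gave 8 higher of 12 (median 0.80), with osteopontin, Spp1, at 1.80 ± 0.35 and Anxa2, a membrane-binding annexin, at 0.97 ± 0.19. Without NZO/HlLtJ high-fat male 3 that count was 5. Endothelial markers gave 8 higher and 1 lower of 12 (median 0.36), with the adhesion genes Cd34 at 0.60 ± 0.12 and Pecam1 at 0.55 ± 0.13, and with Kdr, the receptor of vascular growth factor, lower at -0.24 ± 0.08. Among 8 Schwann cell markers 2 were called higher, against 14.6% of all genes, among them the receptor gene Erbb3 (1.06 ± 0.25). Adipoq, Lep, Plin1, Cfd, Retn and Cidec of the adipocyte list were not among the genes tested. Of its 2 tested members Fabp4, a lipid carrier, was called higher (1.10 ± 0.31). Pnpla2, a lipase, had 0.19 ± 0.10. Kdr lost its call in 1 leave-one-out fit (adjusted p = 0.0976, without NZO/HlLtJ control male 2).

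Proliferation genes rose more in NZO/HlLtJ, though part of the list also moved in C57BL/6J. Of 36 cell cycle genes 30 were called higher in the interaction and 1 lower (median 0.99). The median diet effect of the list was 1.19 in NZO/HlLtJ, 0.45 in C57BL/6J and 0.00 in CAST/EiJ. Accordingly 30 were called higher against CAST/EiJ but 19 against C57BL/6J (9.65% of all genes were higher there), and 19 were specific to NZO/HlLtJ. The exception in direction was Ccnd2, the D-type cyclin of adult beta cells, at -0.72 ± 0.12, also specific. Division genes are switched by E2F factors, whose site was searched as TTTNNCGC on both strands with overlapping matches counted. In the same windows 8 of 28 list genes with a window held it (28.6%), against 1602 of 27025 (5.93%). The motif TTTGAA, the cell cycle genes homology region, searched likewise, was in 13 of 28 (46.4%) against 5466 (20.2%). Mcm6 and Mcm7, subunits of the replicative helicase, were the first 2 specific genes by p with the E2F motif. Their 250 bases before the start, on the minus strand at chr1:128359706-128359955 and chr5:138171884-138172133, are shown with that motif in capitals.
Mcm6: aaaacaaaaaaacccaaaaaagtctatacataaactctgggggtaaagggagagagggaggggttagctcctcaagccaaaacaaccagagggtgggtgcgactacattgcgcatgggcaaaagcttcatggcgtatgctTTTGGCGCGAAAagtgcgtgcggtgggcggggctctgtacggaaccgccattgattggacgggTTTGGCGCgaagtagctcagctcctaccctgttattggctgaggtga
Mcm7: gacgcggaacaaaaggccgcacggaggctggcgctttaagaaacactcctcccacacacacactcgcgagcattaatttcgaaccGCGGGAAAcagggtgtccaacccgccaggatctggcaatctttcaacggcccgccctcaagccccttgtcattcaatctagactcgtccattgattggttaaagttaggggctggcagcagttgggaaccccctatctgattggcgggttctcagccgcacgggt
Mcm6 has 3 matches there, of which 2 overlap on opposite strands, and Mcm7 has 1. Mcm6 (chromosome 1, 128331590 to 128359664) was at 12.5, 11.3, 11.5 and 13.3 CPM in NZO/HlLtJ control females and at 20.6, 18.4, 18.7 and 15.8 CPM in high-fat females. Males had 13.2, 12 and 16.3 CPM on the control and 23.5, 24.8 and 34.2 CPM on the high-fat diet. In C57BL/6J and CAST/EiJ the range was from 7.04 to 15 and from 7.54 to 13.1 CPM. Groups did not overlap in either NZO/HlLtJ sex, and every high-fat NZO/HlLtJ library lay above the others. The interaction of Mcm6 was 0.83 ± 0.12 (adjusted p = 9.23e-06) and that of Mcm7 0.59 ± 0.10.

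Mki67, the usual marker of dividing cells (chromosome 7, 135689788 to 135716379), passed in the interaction but was not specific. It was at 11.3, 9.53, 5.2 and 14 CPM in NZO/HlLtJ control females and at 33.7, 60.7, 30.2 and 32.8 CPM in high-fat females. Males had 16.4, 10.5 and 23.5 CPM on the control and 30.8, 36.5 and 57.3 CPM on the high-fat diet. C57BL/6J ranged from 4.02 to 8.89 CPM on the control and from 7.41 to 20.9 CPM on the high-fat diet, and CAST/EiJ from 10.4 to 22.8 and from 12.6 to 19.5 CPM. NZO/HlLtJ groups were separate in each sex, and those of the other strains overlapped. Its diet effect was 1.62 ± 0.22 in NZO/HlLtJ, 0.89 in C57BL/6J and 0.06 in CAST/EiJ, and the interaction 1.15 ± 0.26 (adjusted p = 0.000987). Kif11, a spindle motor, was among the 5 genes called in the mean of the other strains (0.56), with diet effects of 0.99 in C57BL/6J, 0.14 in CAST/EiJ and 1.45 in NZO/HlLtJ.

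**Figure D3:**
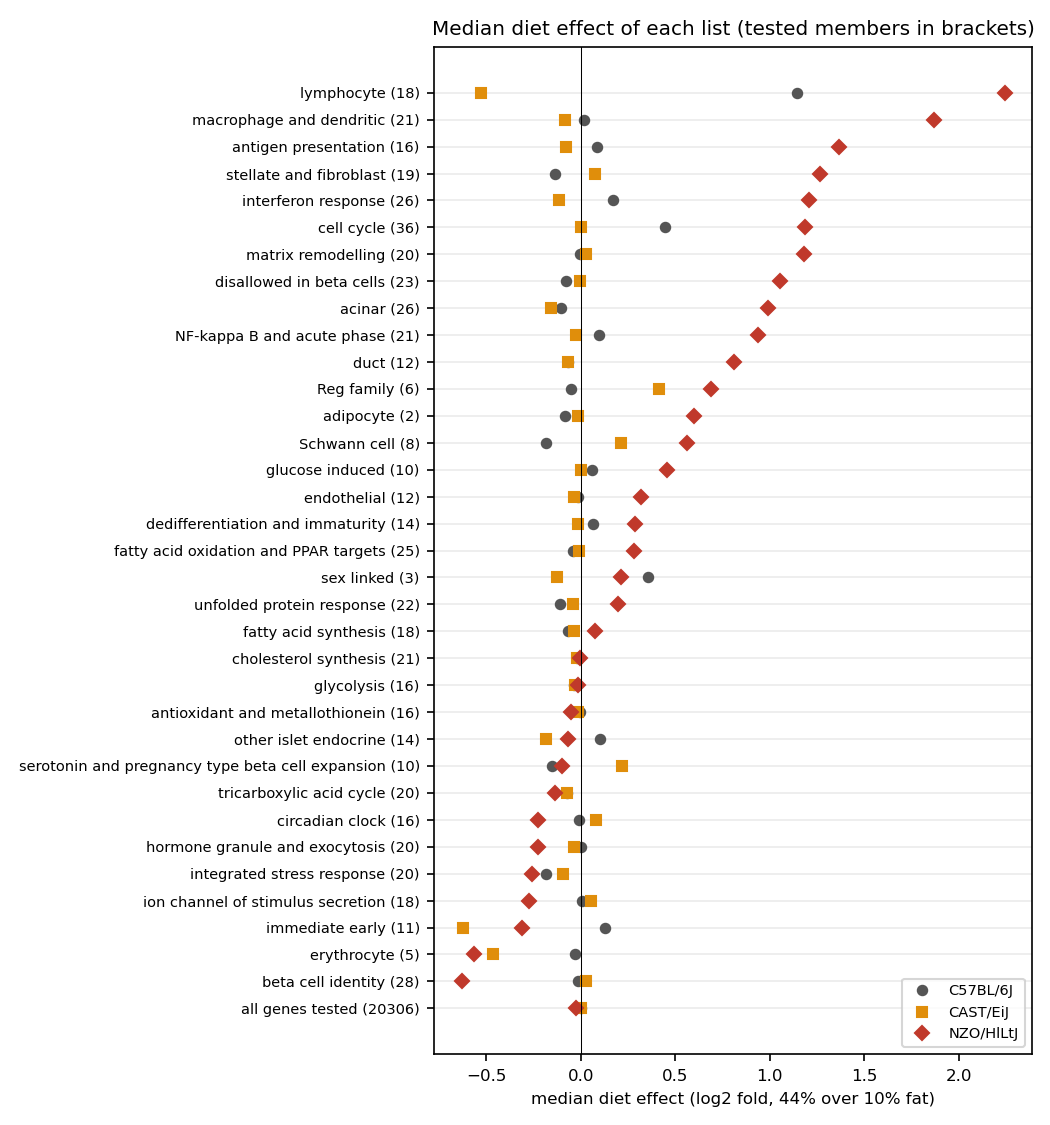
Median diet effect of each gene list (horizontal axis, log2 fold of the 44% over the 10% fat diet, mean of the sexes) in C57BL/6J (circles), CAST/EiJ (squares) and NZO/HlLtJ (diamonds), with the number of tested members in brackets and all genes tested in the lowest row. The diamonds run from -0.63 for beta cell identity to 2.24 for lymphocyte markers, while circles and squares lie nearer 0 for most lists, with exceptions such as lymphocyte markers in C57BL/6J (1.14) and immediate early genes in CAST/EiJ (-0.62).

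Protein folding and stress genes had calls in both directions, against 14.6% of all genes called higher and 15.9% lower. The calls of the unfolded protein response did not exceed these shares, and those of the antioxidant list lay near them. Of 22 genes of the unfolded protein response, which widens the folding capacity of the endoplasmic reticulum, 3 were called higher, Derl3 (1.41 ± 0.31), Creld2 (0.74 ± 0.28) and Edem1 (0.59 ± 0.20), and 1 lower, the lectin chaperone Canx (-0.27 ± 0.11). The median was 0.30, and with the acinar score of each library (its mean log2 CPM over the acinar list) as a covariate it was 0.20, with 1 higher and 0 lower. Hspa5, its main chaperone (chromosome 2, 34771970 to 34777547), was at 2691, 2215, 1356 and 2834 CPM in NZO/HlLtJ control females and at 3027, 6265, 3456 and 3656 CPM in high-fat females. Males had 2731, 3664 and 3935 CPM on the control and 2997, 2466 and 2331 CPM on the high-fat diet. The other strains ranged from 989 to 2247 and from 1046 to 2004 CPM. High-fat females lay above the control females, males overlapped, and the interaction averaged over the sexes was 0.32 ± 0.22 (adjusted p = 0.29). Of 20 genes of the integrated stress response, which amino acid shortage and misfolding trigger, 5 were called lower and 0 higher: the transcription factors Atf5 (-0.94 ± 0.15) and Atf4 (-0.38 ± 0.14), the lipoprotein receptor Vldlr (-0.72 ± 0.15), Sesn2 (-0.48 ± 0.13) and Aars, an aminoacyl-tRNA synthetase (-0.37 ± 0.09). Among 16 antioxidant and metallothionein genes Nqo1, a quinone reductase, was called lower (-1.30 ± 0.20), as were Txnrd1 (-0.20 ± 0.08) and Gclm (-0.25 ± 0.08), while the peroxidase genes Gpx1 (0.37 ± 0.10) and Prdx1 (0.29 ± 0.09) were higher. Of the 3 lower, 1 was called with the acinar score and 1 without NZO/HlLtJ high-fat male 3. Several of these calls were weak: leaving out single libraries ended that of Canx in 28 of 45 fits, Txnrd1 in 24, Atf4 in 19 and Creld2 in 16. It ended that of Edem1 in 2 fits (adjusted p at most 0.0543, without NZO/HlLtJ control male 2), Prdx1 in 1 (0.0631, without control male 1) and Gclm in 1 (0.0597, without high-fat male 3).

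Glycolysis, fatty acid oxidation and fatty acid synthesis genes were called in both directions, against 14.6% of all genes called higher and 15.9% lower. In the tricarboxylic acid cycle and its feeding steps 4 of 20 were called lower and 0 higher, among them Pcx, the pyruvate carboxylase that refills the cycle (-1.20 ± 0.18), Sdha (-0.37 ± 0.08) and Idh3a (-0.31 ± 0.10). In glycolysis 4 of 16 were higher, Ldha, Hk1, Eno1 (0.59 ± 0.11) and Gpi1 (0.25 ± 0.07), and 3 lower, Eno2, Aldoa (-0.28 ± 0.06) and Pfkl (-0.15 ± 0.06). In a list of 25 PPAR targets and fatty acid oxidation genes 8 were higher and 3 lower (median 0.29). Without NZO/HlLtJ high-fat male 3, 5 were higher. The lower included Pparg, a nuclear receptor of lipid storage (-0.74 ± 0.15), and Hadh, a beta-oxidation enzyme that beta cells hold at a high level (-0.73 ± 0.11). In fatty acid synthesis 3 of 18 were higher, the desaturases Fads2 (0.83 ± 0.13) and Scd1 (1.00 ± 0.25) and Acacb (1.01 ± 0.38), and 2 lower, the elongases Elovl5 (-0.52 ± 0.10) and Elovl6 (-0.30 ± 0.09). Without control male 3 of NZO/HlLtJ 4 were lower, and without high-fat male 3 1 was. Cholesterol genes gave 3 of 21 lower, among them Msmo1, an enzyme of sterol synthesis (-0.42 ± 0.15). Without high-fat male 3 that count was 1, and without control male 3 it was 5. Leave-one-out fits ended the calls of Acacb (20 of 45 fits), Pfkl (14) and Msmo1 (10). They ended that of Gpi1 in 2 fits (adjusted p at most 0.0729, without NZO/HlLtJ control male 1). Idh3a lost its call in 2 (at most 0.0638, without control male 2) and Elovl6 in 1 (0.0571, without high-fat male 3).

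Of 16 circadian genes 5 were lower and 0 higher (median -0.40), against 15.9% and 14.6% of all genes. The lower were Clock (-0.49 ± 0.09), Bhlhe41 (-0.47 ± 0.16), Nr1d2 (-0.56 ± 0.21), Ciart (-0.83 ± 0.32) and Cry2 (-0.56 ± 0.21). Without high-fat male 3 the count was 3, and with the acinar score as a covariate 2. In leave-one-out fits Cry2 lost its call in 27 of 45, Ciart in 24, Nr1d2 in 15 and Bhlhe41 in 2 (adjusted p at most 0.109, without NZO/HlLtJ control male 2). The hour of tissue collection was not analysed here. Of 10 genes of serotonin and of beta cell growth in pregnancy 3 were lower, Prlr, Ivd (-0.83 ± 0.17) and Cish, a feedback inhibitor that STAT5 induces (-1.12 ± 0.37). The erythrocyte (5 tested), immediate early (11), Reg family (6) and sex linked (3) lists had 0 called members by edgeR and 0 by DESeq2, with 1 member (Reg3g) at an unadjusted p under 0.05.

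Of 26 acinar genes only 2 were called higher and 0 lower in the interaction, against 14.6% and 15.9% of all genes. Their median was 1.17 (2.43 in females and -0.08 in males), and 0.31 in the libraries of the first number range. It was 0.82 without the 2 libraries that stand apart, 1.60 without the range term and 1.57 with a range term within each strain. The number ranges of NZO/HlLtJ split by sex and diet together, so the values by sex depend on the range term. The list's summed level rose in both NZO/HlLtJ sexes, from medians of 2.4% to 7.23% of scaled counts in females and 4.88% to 16.9% in males. In females it fell in C57BL/6J (9.58% to 5.9%) and CAST/EiJ (7.49% to 2.11%). In males the median fell in C57BL/6J (5.1% to 2.85%) and rose in CAST/EiJ (2.07% to 3.39%). C57BL/6J high-fat male 1 alone held an acinar share of 15.03% of counts. CAST/EiJ control female 4 held the highest acinar share of counts (41.05%). The called genes were the trypsinogen genes Prss1 (5.56 ± 1.58) and Prss3 (4.94 ± 1.11), and among the largest higher genes were also Gm5771 (7.59 ± 1.40), Gm2663 (6.60 ± 1.46) and Gm10334 (5.87 ± 1.21). All of these share most of their sequence with other entries of the trypsinogen family and are uncertain. Gm5771 ran from 0.217 to 2.4 CPM in NZO/HlLtJ control females, from 51.2 to 1327 in high-fat females, from 20.8 to 611 in control males, where control male 3 was the highest, and from 2650 to 8610 in high-fat males. It was at most 16.9 CPM in C57BL/6J and 0.232 CPM in CAST/EiJ. The part of strain differences in these copies in the interaction was not tested. Without CAST/EiJ control male 3 the calls of Gm5771 (adjusted p = 1) and Gm2663 (adjusted p = 0.221) were lost, and without C57BL/6J control male 2 that of Prss1 (adjusted p = 0.169). CAST/EiJ control males 1 and 2 held 0 and 0 CPM of Gm5771 and 0 and 0.0452 CPM of Gm2663. The sizes and calls of Gm5771 and Gm2663 therefore rest on very few counts in CAST/EiJ. Without NZO/HlLtJ control male 3 the values were 9.06 for Gm5771, 8.39 for Gm2663, 7.46 for Gm10334 and 7.30 for Prss1, and without CAST/EiJ high-fat male 2 that of Prss3 was 5.92. Reg3g and Reg1, secreted by the injured exocrine pancreas, had 2.65 ± 1.25 (adjusted p = 0.106) and 0.97 ± 1.06.

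With the acinar score as a covariate, the acinar median turned to -0.37, with 1 gene higher and 8 lower, and Reg1 turned to -0.60 with a call (adjusted p = 0.0157). The Reg family median turned from 0.27 to -0.94, with 3 of 6 lower. The following groups kept their direction: beta cell identity had a median of -0.64 with 17 lower of 28, disallowed genes 0.88 with 19 higher of 23, macrophage markers 2.00 with 19 higher, antigen presentation 1.37 with 16, interferon response 1.23 with 24, stellate and fibroblast 1.19 with 17 and cell cycle 0.97 with 30. In that fit 4996 genes were called in the interaction (24.6%), 2417 were specific, and 2361 of the 3435 (68.7%) stayed so. All 3435 had the same sign of the interaction.

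**Figure D4:**
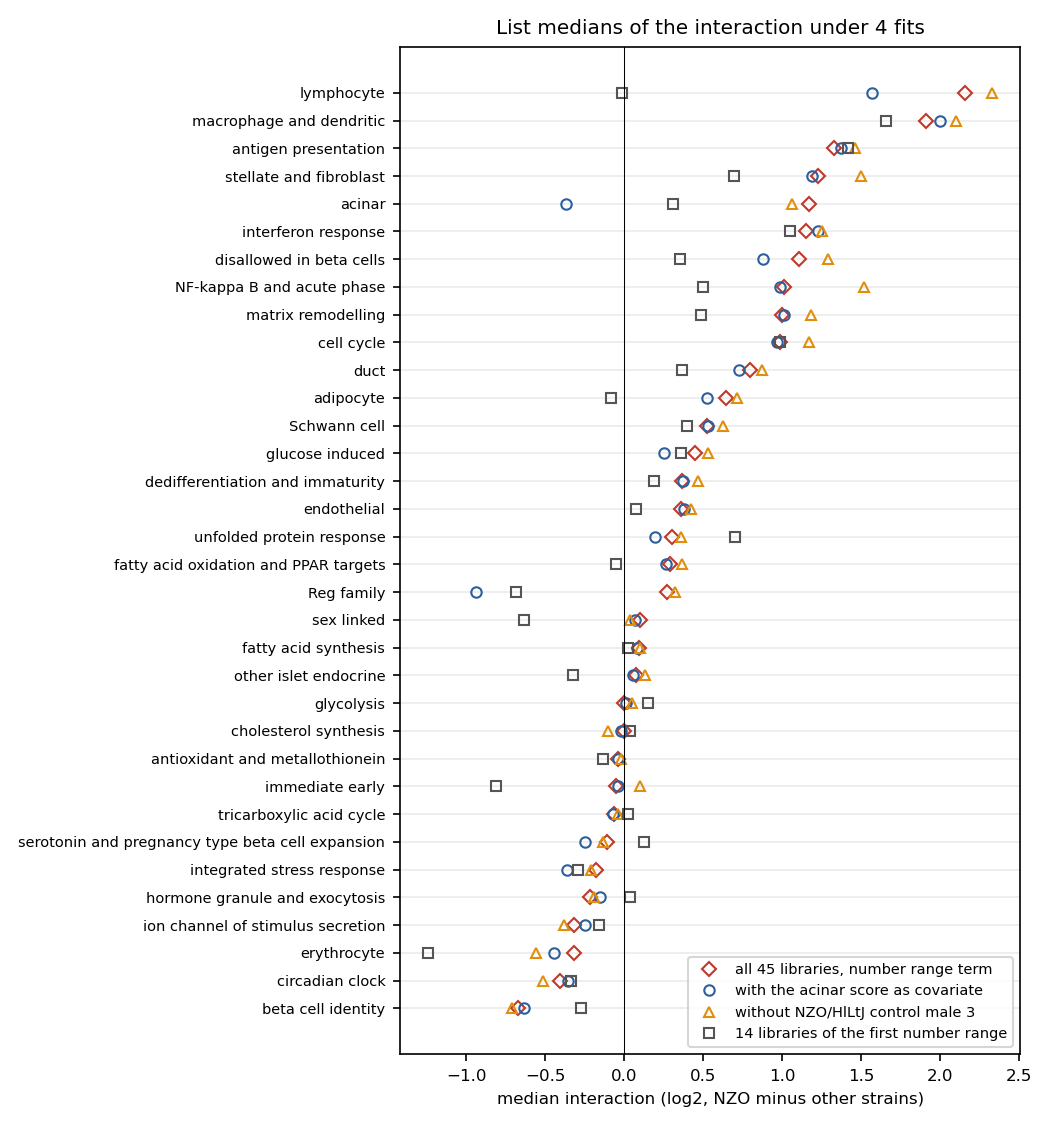
Median interaction of each gene list (horizontal axis, log2, NZO/HlLtJ minus the mean of the other strains) in the fit of all 45 libraries (diamonds), with the acinar score as a covariate (circles), without NZO/HlLtJ control male 3 (triangles) and in the 14 libraries of the first number range (squares). Diamonds and circles lie close together for most lists, and apart for the acinar list (1.17 against -0.37), the Reg family (0.27 against -0.94) and lymphocyte markers (2.17 against 1.57). Squares lie nearer 0 than diamonds for lymphocyte markers (-0.01), disallowed genes (0.35), stellate and fibroblast markers (0.70) and beta cell identity (-0.27).

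The response of NZO/HlLtJ differed between females and males for some groups. In females alone 2258 genes were called in the interaction (11.1%, 5.54% higher and 5.58% lower) and in males alone 4692 (23.1%), 2180 higher (10.7%) and 2512 lower (12.4%). The test of the difference between the sexes called 1091 (5.37%), with the female value above the male for 3.13% of all genes and below it for 2.24%. Of the 3435 specific genes 3342 had the same sign in both sexes, and 2668 (77.7%) were larger in males. These genes were chosen on the mean of the sexes, which favours a shared sign, so the counts describe them and test nothing. The same shares over all genes were not computed. The number ranges of NZO/HlLtJ split by sex and diet together, so the test of the sex difference depends on the range term. Without that term 269 genes were called in it, and with a range term within each strain 96. In beta cell identity the median was -0.20 in females and -1.07 in males, with 3 and 23 of 28 called lower, and the difference was called for 17. The unfolded protein response had 0.94 in females, with 14 of 22 called higher, and -0.43 in males, with 0 higher and 2 lower, and 11 differed. Macrophage markers had medians of 1.57 and 2.27. Of 14 markers of the other islet endocrine cells the difference was called for 4, with medians of -0.66 and 0.68. Gcg was among them (-0.83 in females and 1.05 in males, adjusted p = 0.0229).

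Single genes chosen for that difference by the smallest p are given as a description. Cdh8, a cadherin, had -0.04 in females and -1.97 in males, and Srl, the calcium-binding protein sarcalumenin, -0.13 and -2.34. Car10 had 0.59 and -1.58, and Adra2a, the adrenergic receptor that restrains insulin release, 0.70 and -1.31. In the opposite direction Gfod1 had -0.05 and 2.36, Tenm4, a teneurin, -0.67 and 1.04, the calcium sensor gene Ncs1 -0.89 and 1.29, and the calcium channel subunit gene Cacna2d2 -0.84 and 0.99.

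**Figure D5:**
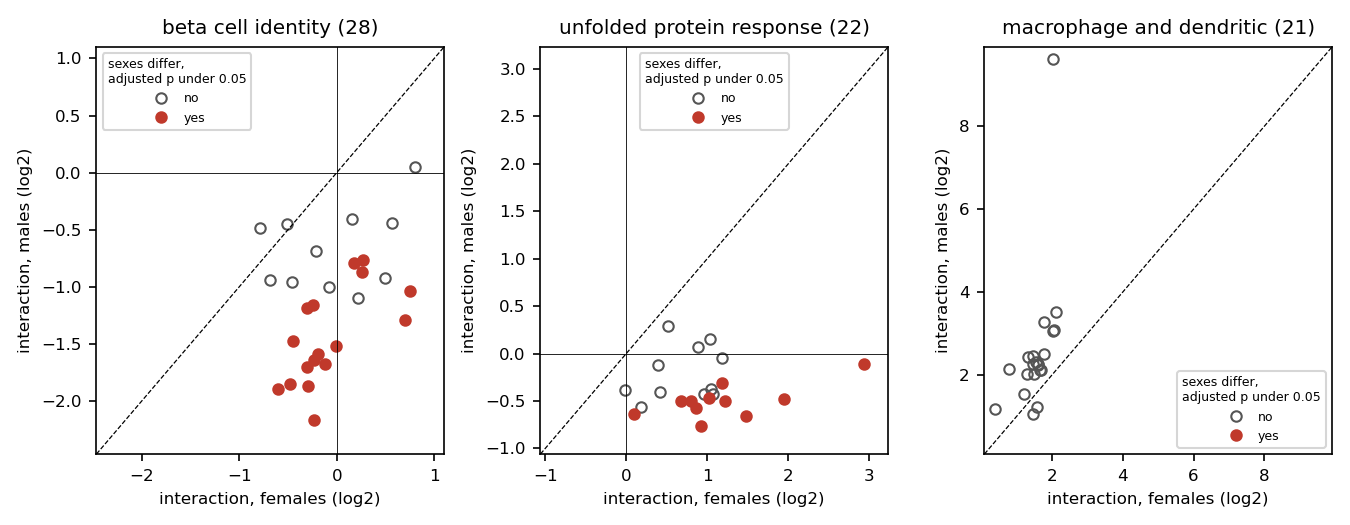
Interaction of each list member in females (horizontal axes, log2) and in males (vertical axes, log2) for beta cell identity (28), unfolded protein response (22) and macrophage and dendritic (21) genes. Filled points are those whose sexes differed at an adjusted p under 0.05, 17 of the identity and 11 of the folding genes. The dashed line marks equal values, and identity genes lie lower on the male than on the female axis for most members.

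Opposite responses and responses missing from NZO/HlLtJ were few. No gene was called with opposite directions in NZO/HlLtJ and in the mean of the other strains. Against C57BL/6J alone 2 genes were, found after their values were seen: Hpgds, which makes prostaglandin D, and Rasd2, a small G protein. Hpgds was from 24.3 to 38.8 CPM on the control and from 13.5 to 31.8 CPM on the high-fat diet in NZO/HlLtJ, but from 7.65 to 12 and from 9.43 to 15.7 CPM in C57BL/6J. Its diet effects were -0.65 and 0.50, and its interaction -1.0 ± 0.13 (adjusted p = 2.19e-06). Rasd2 had -0.63 in NZO/HlLtJ and 0.84 in C57BL/6J, with an interaction of -1.21 ± 0.22. Besides Kif11, the genes called in the mean of the other strains were Mc5r, a melanocortin receptor, 2210418O10Rik, 9930111J21Rik2 and Gm12174, and the last 3 were also the ones called between CAST/EiJ and C57BL/6J. Those 3 share sequence or exons with other entries and are uncertain. Gm12174 was at 20.8, 10.4 and 9.92 CPM in CAST/EiJ high-fat females 1, 2 and 4. It was at most 1.07 CPM in the other CAST/EiJ libraries and at least 99.4 CPM in C57BL/6J and NZO/HlLtJ. Its diet value in CAST/EiJ therefore rests on those 3 libraries, and the cause was not tested. 2210418O10Rik was at most 0.414 CPM in CAST/EiJ against at least 4.92 CPM in NZO/HlLtJ and 8.58 CPM in C57BL/6J, so its diet value in CAST/EiJ rests on very few counts. Mc5r had diet effects of 2.86 in C57BL/6J, 0.57 in CAST/EiJ and -0.18 in NZO/HlLtJ, at levels of at most 1.1 CPM in NZO/HlLtJ. Zfp607, a zinc finger gene, was named by size among the higher genes, but in NZO/HlLtJ it was at 0 CPM in 6 of 7 control libraries and at most 0.205 CPM in any, against 2.86 to 6.59 CPM in the other strains, so no fold is given. Its call was lost without NZO/HlLtJ high-fat male 3 (adjusted p = 0.264).

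Calls and sizes differed between subsets of the libraries. In the 14 libraries of the first number range, the only range with every NZO/HlLtJ group, 3 genes were called in the interaction and 0 were specific. Of the 3424 specific genes with a value, 3370 had the same sign there. These libraries also entered the fit that chose the specific genes, so this sign count describes them and tests nothing. The sizes of some lists were smaller there: the median interaction was -0.01 for lymphocyte markers (2.17 over all libraries), 0.35 for disallowed genes (1.11), 0.70 for stellate and fibroblast markers (1.23) and -0.27 for beta cell identity (-0.67). It was 1.66 for macrophage markers (1.91), 1.42 for antigen presentation (1.33), 1.05 for the interferon response (1.15) and 0.98 for the cell cycle (0.99). With each of the 45 libraries left out in turn the interaction called from 5093 genes, without NZO/HlLtJ high-fat male 3, to 7365, without NZO/HlLtJ control male 3. Specific genes then numbered from 2429 to 4824 with the same libraries, and 1935 were specific in every such fit.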

How the data were processed

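RNA of isolated islets was measured in 45 libraries, with groups taken from the labels and depths of 57203768 to 109950216 counts, 83542104 on average. The authors deposited expected counts per gene, of which 80.6% lay within 1e-06 of a whole number, and a table of log2 values that the authors variance-stabilised, which was not used in the tests. GRCm38 and DESeq2 are named in the submitters' processing notes. Aligner, counter and strand setting: not given in the sources used here. Reads of a gene and of one that overlaps it on either strand may therefore be mixed. The deposited annotation gave names and positions, and GENCODE M21 and RefSeq (GRCm38.p6) gave sequence for shared-copy checks and promoters.

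Counts were rounded to whole numbers, filtered (filterByExpr, minimum count 10), scaled by TMM and fitted with edgeR 4.0.16 (limma 3.58.1, R 4.3.3) with a quasi-likelihood test, 12 groups of strain, diet and sex plus the number range (31 residual degrees of freedom). P-values were Benjamini-Hochberg adjusted over the 20306 genes tested. The fit was tested on simulated counts. Totals are PCR reads without molecular identifiers, so precision from depth covers counting error only. Replicates of no group were the same library, with a chi-square per degree of freedom of at least 63.28. Named genes were those of largest interaction and smallest p among the specific genes, the smallest p of each list, fixed reference genes, genes with opposite or missing responses and genes of smallest p for the sex difference. A further 40 were added after their values were seen. They were members behind counts of 5 or fewer and genes called for diet in the mean of the other strains or between those strains. Genes called with opposite signs in NZO/HlLtJ and a single other strain were also among them. The members and the 34 gene lists were chosen with earlier results of these data known. A gene was called uncertain where at least 50% of its 31-base words or exons were shared with another entry. Alternatives were DESeq2 1.42.0, other scalings and filters, other range terms, the acinar score, the first range and leaving out libraries. Some list members are not reported here.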

Additional observations from a re-analysis of the deposited data

Results flagged for a closer look

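Single libraries lay far from the others of their group in 11 of 153 tested combinations of a measure and a group of 4, and chance flags about 1 in 20. Acinar transcripts held 15.03% of counts in C57BL/6J high-fat male 1 (others at most 3.45%), 41.05% in CAST/EiJ control female 4 (others at most 7.40%) and 8.834% in NZO/HlLtJ control female 2 (others at most 2.72%). CAST/EiJ control female 4 also had Eno2 at 110 CPM (others at least 140 CPM) and Bst2 at 6.38 CPM (others at most 2.95 CPM). CAST/EiJ high-fat female 3 had Eno2 at 155 CPM (others at most 133 CPM) and Jph3 at 40.3 CPM (others at most 32.6 CPM). Mki67 was at 14.5 CPM in CAST/EiJ control female 1 (others at most 11 CPM) and at 60.7 CPM in NZO/HlLtJ high-fat female 2 (others at most 33.7 CPM). Cck was at 0.47 CPM in CAST/EiJ control female 2 (others at most 0.126 CPM), and Txnip at 177 CPM in CAST/EiJ high-fat female 1 (others at least 258 CPM).

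For 29 of the named genes the interaction differed between females and males at an adjusted p under 0.05 in edgeR, a test whose count depends on the range term. The values that follow are the female minus the male interaction on the log2 scale. Of genes lower in NZO/HlLtJ, the difference was 3.74 for Cib3, 2.85 for Cyp4f39, 1.99 for St8sia1, 1.57 for Slc2a2, 1.56 for Sytl4, 1.51 for G6pc2, 1.45 for Pcx, 1.39 for Prlr, 1.29 for Trpm5, 0.98 for Hadh and 0.98 for Ccnd2, so that each fell more in males. Canx differed by 0.74 and Elovl6 by 1.04, with females at or above 0 and males below. Among folding genes Derl3 differed by 3.04 and Creld2 by 2.43, both higher in females alone.

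Pfkfb3 (-1.30) rose in both sexes and was larger in males. Hk1 (-1.29) and Cd81 (-1.14) were above 0 in males only (1.19 and 0.92, against -0.10 and -0.22 in females). Ins1 differed by 1.79 and Gcg by -1.88, with opposite signs in the sexes. Mc5r, at low level in NZO/HlLtJ, differed by 4.32. The genes chosen for this difference had 1.93 (Cdh8), 2.21 (Srl), 2.17 (Car10), 2.01 (Adra2a), -2.41 (Gfod1), -1.71 (Tenm4), -2.17 (Ncs1) and -1.83 (Cacna2d2).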

How the results depend on the processing

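No paired analysis was possible because the labels give no replicate numbers and tie no sample to an animal. In the 14 libraries of the first number range, which hold fewer samples, the interaction called 3 genes, against C57BL/6J 0, against CAST/EiJ 7, between CAST/EiJ and C57BL/6J 6, the NZO/HlLtJ diet effect 0, and 0 genes were specific. Calls between CAST/EiJ and C57BL/6J were 20 with DESeq2, 5 with a range term within each strain and 1 without the 2 libraries that stand apart, an alternative chosen after seeing the data. Calls for diet in the mean of the other strains were 54 with DESeq2, 13 with a stricter filter, 8 with a range term within each strain and 2 without those libraries. The female interaction called 509 with a range term within each strain and 1498 with the acinar score. The sex difference called 1686 with DESeq2, 269 without a range term and 96 with one within each strain. The cause was not tested. DESeq2 called 2915 of 5063 male genes higher, DESeq2 size factors 2521 of 4430 and TMM 2180 of 4692.

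Leaving out each library gave 5093 to 7365 calls in the interaction, 2429 to 4824 specific genes, 2949 to 5680 against C57BL/6J, 4291 to 6631 against CAST/EiJ, 0 to 21 between those strains, 6182 to 8348 for the NZO/HlLtJ diet effect, 1 to 31 for the others, 929 to 3075 in females, 2413 to 5738 in males and 367 to 1856 for the sex difference.

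Of the 1672 values of 140 named genes outside the first range, 1588 kept direction and call and 2 reversed: Reg1 with the acinar score (-0.605) and Ins1 without NZO/HlLtJ high-fat male 3 (leave-one-out range -0.262 to 0.0186). In the first range 19 reversed: Prlr 0.131, Fabp4 -0.0903, Cd81 -0.0158, Car10 0.151, Elovl6 0.046, Mc5r 0.133, Zfp607 -1.35, Acacb -0.0991, Txnrd1 0.0557, Canx 0.0804, Adra2a 0.236, Mafa 0.425, Pnpla2 -0.0727, Tenm4 -0.0738, Ncs1 -0.328, Ins2 0.247, Ins1 0.440, Cacna2d2 -0.237 and Gcg -0.39.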
